A study of Mus musculus with 30 samples.

Results

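The proteasome genes described here are the mouse genes whose symbol begins with Psma, Psmb, Psmc, Psmd, Psme, Psmf or Psmg, taken from probe sets that carry a single symbol, with the brightest probe set standing for each gene. Of the 12394 genes measured this way on 30 arrays, 48 met the rule, and 45 of them were bright enough to be among the 7436 tested. Psma8, Psmb8 and Psmb9 were not tested because of their low signal, and Psma8 stood at the floor set for low signals on 23 of 30 arrays. Psme2 shares its probe set with another symbol and so has no value. The prefix also takes in Psmc3ip and Psme3ip1, which encode partner proteins and not parts of the particle, as well as 7 genes of assembly chaperones.

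The study measured the effect of brain-derived neurotrophic factor (BDNF), which signals through the TrkB receptor, in primary cultures of embryonic mouse telencephalon that lacked or carried Xbp1, whose product is a transcriptional regulator in the response to unfolded proteins in the endoplasmic reticulum. Embryos came from matings of Xbp1 +/- animals and were dissected at embryonic day 12.5. Telencephalon cells of 6 Xbp1 -/- embryos (KO) formed one pool and those of 4 Xbp1 +/+ embryos (WT) the other, and each pool was divided over 15 dishes in serum-free medium. The 6 groups of 5 dishes, with 1 array per dish, were KO basal, KO with BDNF for 24 h, KO with BDNF for 48 h, WT basal, WT with BDNF for 24 h and WT with BDNF for 48 h. BDNF was given at 100 ng/ml on day 3 in vitro. Basal and 24 h dishes were lysed on day 4 and 48 h dishes on day 5, so at 48 h the effect of BDNF and that of a further day in culture cannot be told apart. With 1 pool per genotype, a p-value here reflects variation among dishes alone, and a genotype difference cannot be told apart from a difference between the pools.

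The proteasome is the main protease of the cytosol and nucleus and degrades proteins tagged with ubiquitin. Its barrel-shaped core is built of alpha and beta rings, and only some of the beta subunits cut peptide bonds. A regulatory particle at the barrel's ends, made of a base with a ring of ATPases and a lid, binds ubiquitin chains, removes them and unfolds the substrate. Interferon induces replacement catalytic subunits and the activator PA28, which favour peptides for antigen presentation. In neurons the ubiquitin-proteasome system is known for its part in synapse remodelling and axon growth.

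Promoters are shown first for the 4 proteasome genes that passed the test in the most comparisons (Psmd14 in 5 of 7, Psme3, Psme1 and Psmb5 in 4) and for Psmc5 and Psmc4, which had the highest mean size of change among the 9 genes that passed in 3. They cover 250 bases before and 50 after the gene's start in RefSeq's annotation of GRCm38.p6, and such a sequence was matched for 40 of the 48 genes. Letters in capitals mark a match to one of the motifs searched on both strands. Psmd14 lies at chr2:61711444-61711743 (+ strand), Psme3 at chr11:101315963-101316262 (+ strand) and Psme1 at chr14:55578244-55578543 (+ strand). Psmb5 lies at chr14:54617946-54618245 (- strand), Psmc5 at chr11:106255935-106256234 (+ strand) and Psmc4 at chr7:28050043-28050342 (- strand).
Psmd14: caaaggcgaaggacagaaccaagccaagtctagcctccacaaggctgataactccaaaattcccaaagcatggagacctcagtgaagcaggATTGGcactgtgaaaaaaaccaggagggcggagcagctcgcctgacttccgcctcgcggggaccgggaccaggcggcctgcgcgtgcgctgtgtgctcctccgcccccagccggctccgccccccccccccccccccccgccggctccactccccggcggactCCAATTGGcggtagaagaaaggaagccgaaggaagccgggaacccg
Psme3: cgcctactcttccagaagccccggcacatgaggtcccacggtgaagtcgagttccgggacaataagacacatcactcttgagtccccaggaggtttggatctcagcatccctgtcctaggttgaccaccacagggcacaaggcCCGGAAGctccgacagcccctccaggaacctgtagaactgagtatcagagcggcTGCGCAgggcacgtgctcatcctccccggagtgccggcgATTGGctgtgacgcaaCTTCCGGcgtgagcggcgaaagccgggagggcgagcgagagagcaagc
Psme1: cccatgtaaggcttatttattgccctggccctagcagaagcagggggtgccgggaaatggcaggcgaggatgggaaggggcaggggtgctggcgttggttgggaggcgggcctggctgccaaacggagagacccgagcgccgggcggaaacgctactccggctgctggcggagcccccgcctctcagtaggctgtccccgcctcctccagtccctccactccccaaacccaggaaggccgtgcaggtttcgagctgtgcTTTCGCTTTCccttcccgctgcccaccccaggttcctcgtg
Psmb5: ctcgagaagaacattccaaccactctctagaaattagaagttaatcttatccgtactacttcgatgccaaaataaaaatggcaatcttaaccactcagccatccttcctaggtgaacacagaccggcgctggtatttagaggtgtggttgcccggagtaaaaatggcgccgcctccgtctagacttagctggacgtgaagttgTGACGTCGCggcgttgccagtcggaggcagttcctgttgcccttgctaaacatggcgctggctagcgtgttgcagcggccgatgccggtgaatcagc
Psmc5: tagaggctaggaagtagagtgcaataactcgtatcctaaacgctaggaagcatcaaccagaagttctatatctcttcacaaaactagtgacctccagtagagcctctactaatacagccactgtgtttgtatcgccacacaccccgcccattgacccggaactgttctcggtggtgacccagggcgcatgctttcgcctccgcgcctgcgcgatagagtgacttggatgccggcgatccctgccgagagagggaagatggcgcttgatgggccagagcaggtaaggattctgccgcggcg
Psmc4: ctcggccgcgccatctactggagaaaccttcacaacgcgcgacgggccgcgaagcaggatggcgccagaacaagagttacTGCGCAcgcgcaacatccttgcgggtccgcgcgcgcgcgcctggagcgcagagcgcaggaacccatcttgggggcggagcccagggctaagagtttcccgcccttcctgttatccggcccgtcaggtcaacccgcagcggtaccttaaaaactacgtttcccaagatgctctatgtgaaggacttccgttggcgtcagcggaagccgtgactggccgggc
The capitals in Psmd14 are CCAAT boxes, of which the 2 near the gene's start overlap each other. Those in Psme3 are ETS cores at both ends, an NRF1 core and a CCAAT box. Psme1 has an interferon-stimulated response element (ISRE) core, Psmb5 an antioxidant response element (ARE), and Psmc4 an NRF1 core. Psmc5 holds none of these letters in this window.

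Over all proteasome genes with a promoter, the ETS core CCGGAAG was found in 14 of 40 proteasome genes (35%), 20.4% of tested genes and 9.12% of all listed genes. The ISRE core, made of GAAA, any 2 bases and a second GAAA and bound by interferon regulatory factors, was in 5 of 40 proteasome genes (12.5%), 3.04% of tested genes and 3.49% of all listed genes. The ARE TGACNNNGC, bound by the proteasome regulators NFE2L1 and NFE2L2, was in 6 of 40 proteasome genes (15%), 14.6% of tested genes and 12.5% of all listed genes. CCAAT was found in 14 of 40 proteasome genes (35%), 38.9% of tested genes and 37.9% of all listed genes. The NRF1 core TGCGCA is a motif apart from the ARE of NFE2L1. This core was in 6 of 40 proteasome genes (15%), 16.7% of tested genes and 8.06% of all listed genes. TGACGTG, a core bound by XBP1, was in 1 of 40 proteasome genes (2.5%), 3.26% of tested genes and 1.99% of all listed genes. Psma1 was the single proteasome gene with the XBP1 core. These counts describe letters in a window of 300 bases, and the motifs differ in how often base composition alone produces them.

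Signals are given as log2 of the deposited intensity divided by the array's median, and changes as log2 differences ± SE from one limma fit over all arrays, with p-values adjusted over the 7436 tested genes of a comparison. "Rose", "fell" and "past the threshold" refer to an adjusted p below 0.05. Array medians before scaling ranged from 81.9 to 138.5 intensity units. The ratio of the 3' to the 5' Gapdh probe sets, which follows RNA quality, was 2.172 to 2.679 on the 48 h arrays, against 2.569 to 3.048 on the 20 basal and 24 h arrays, and counts with this ratio in the fit are given with the 48 h results. Neuronal markers (Tubb3, Dcx, Map2, Snap25, Stmn2), progenitor markers and, at low level, microglial markers were present. All 5 endothelial markers averaged below the array median, as did Gfap, Aldh1l1, Aqp4 and S100b of the astrocyte markers. The same held for Aif1, C1qa, Tyrobp, Cx3cr1 and Ptprc of the microglial markers. Erythroid markers summed to 48.54 to 86.16 array medians in KO basal and 50.76 to 92.36 in WT basal dishes. A bulk signal cannot tell fewer cells of a type from less RNA per cell.

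After 48 h of BDNF, some of the 45 tested proteasome genes rose in each genotype. In KO dishes 21 of 45 rose and 1 fell, against 19.4% and 9.47% of all tested genes. In WT dishes 16 rose and 1 fell, against 20.5% and 15.7% of all tested genes. Their median change was 0.202 in KO dishes, where the median over all tested genes was 0.045, and 0.137 in WT dishes, where it was 0.023. The genes that rose in both genotypes numbered 12, out of 21 in KO and 16 in WT dishes. The share of all tested genes that rose in both was not counted, so this overlap cannot be read against it. In KO dishes 8 genes had all 5 BDNF arrays above all 5 basal arrays and 1 had them all below, against 12.6% and 6.12% of all tested genes. In WT dishes these were 7 and 0, against 10.9% and 8.71%.

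Other ways of fitting moved these counts. With replicates 1 and 2 of the 48 h groups alone, rises in WT dishes were no more frequent than among all tested genes. Scaling each array to its 75th percentile left 12 higher and 3 lower in KO dishes, against 13.2% and 18.6% of all tested genes, and 11 higher and 5 lower in WT dishes, against 15.5% and 23.3%. Quantile normalization gave 16 higher and 1 lower in KO dishes, against 14.5% and 15.9%, and 13 higher and 3 lower in WT dishes, against 15.7% and 21.1%. With the Gapdh ratio in the model 6 rose and 0 fell in KO dishes, against 7.67% and 5.68%, and 6 rose and 1 fell in WT dishes, against 9.09% and 10.7%. With only replicates 1 and 2 of the 48 h groups, whose Gapdh ratios of 2.439 to 2.679 were closer to those of the other arrays than the 2.172 to 2.511 of replicates 3 to 5, 8 rose and 0 fell in KO dishes, against 9.2% and 6.85%, and 1 rose and 1 fell in WT dishes, against 5.82% and 7.93%.

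**Figure D1:**
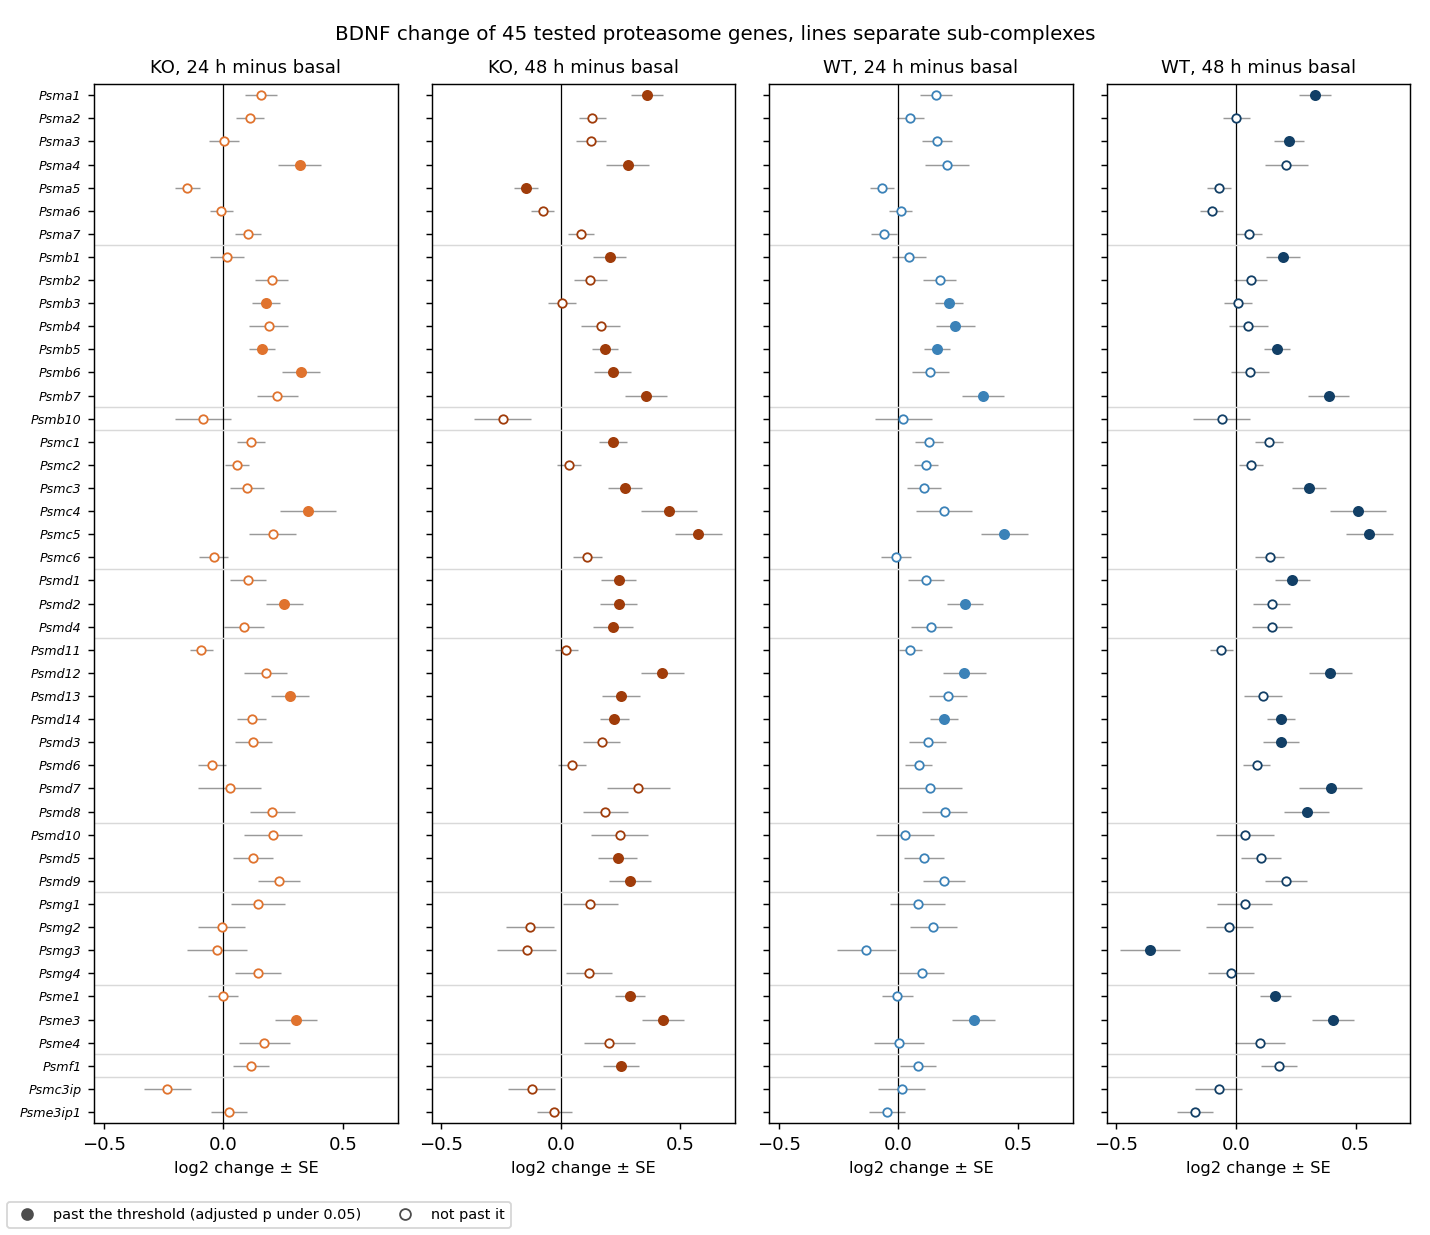
Log2 change ± SE of the 45 tested proteasome genes (rows, grouped by sub-complex between grey lines) after 24 h and 48 h of BDNF against basal dishes, in KO (left pair) and WT (right pair), 5 arrays per group. Filled points passed an adjusted p of 0.05. Most points lie right of 0 at both times, and Psmc5 reaches 0.57 in KO and 0.56 in WT dishes at 48 h.

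The ATPases of the base, which unfold substrates and thread them into the core, included Psmc5, the gene with the largest rise at 48 h among the 45 in both genotypes. After 48 h 4 of 6 rose in KO dishes and 3 of 6 in WT dishes, against 19.4% and 20.5% of all tested genes. Each sub-complex holds few genes, so its count is not read as a difference from the other sub-complexes. Psmc5 had log2 signals of 2.64, 2.76, 2.73, 2.77 and 3.04 in KO basal dishes, 2.86, 3.13, 3.01, 2.97 and 2.99 after 24 h and 3.20, 3.39, 3.31, 3.44 and 3.47 after 48 h. Psmc5 in WT dishes read 2.53, 2.72, 2.81, 2.72 and 2.69 in WT basal dishes, 3.35, 3.31, 2.95, 3.00 and 3.08 after 24 h and 2.96, 3.11, 3.35, 3.16 and 3.67 after 48 h. All 48 h arrays lay above all basal arrays of the same genotype. The rise at 48 h was 0.57 ± 0.098 (adjusted p = 4.95e-05) in KO and 0.56 ± 0.098 (adjusted p = 4.91e-05) in WT dishes. Psmc4, another ATPase of the ring, had 4.28, 4.25, 4.62, 4.41 and 5.05 in KO basal dishes, 4.86, 4.83, 4.94, 4.89 and 4.86 after 24 h and 4.74, 4.73, 5.11, 5.12 and 5.17 after 48 h. Its WT signals were 4.59, 4.61, 4.94, 4.68 and 4.51 in WT basal dishes, 4.83, 4.70, 4.74, 5.00 and 4.99 after 24 h and 4.80, 5.09, 5.26, 5.41 and 5.32 after 48 h. KO basal replicate 5 and WT basal replicate 3 were high for this gene, and the groups overlapped. Psmc4 rose by 0.45 ± 0.12 (adjusted p = 0.00416) in KO and by 0.51 ± 0.12 (adjusted p = 0.00104) in WT dishes after 48 h. Psmc3 also rose in WT dishes, by 0.30 ± 0.071 (adjusted p = 0.00108). The remaining ATPase changes at 48 h were no lower than 0.033 in KO and 0.063 in WT dishes.

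Lid subunits, which hold the deubiquitinase that strips ubiquitin from substrates, rose in 3 of 8 cases in KO and 5 of 8 in WT dishes at 48 h. The shares of all tested genes that rose were 19.4% and 20.5%. Psmd12, a scaffold subunit of the lid, had 3.49, 3.57, 3.64, 3.75 and 3.94 in KO basal dishes, 3.51, 3.89, 3.97, 3.93 and 3.98 after 24 h and 4.03, 4.22, 4.13, 4.13 and 4.00 after 48 h. Its WT signals were 3.67, 3.73, 3.92, 3.69 and 3.66 in WT basal dishes, 3.85, 4.09, 4.05, 3.98 and 4.08 after 24 h and 3.93, 4.02, 4.08, 4.17 and 4.44 after 48 h. The 48 h and basal arrays did not overlap in either genotype, although KO 24 h replicate 1 lay with the basal dishes. The change at 48 h was 0.42 ± 0.090 (adjusted p = 0.00065) in KO and 0.40 ± 0.090 (adjusted p = 0.000975) in WT dishes. Psmd14, the deubiquitinase itself, had 5.67, 5.66, 5.69, 5.79 and 5.86 in KO basal dishes, 5.75, 5.92, 5.79, 5.91 and 5.89 after 24 h and 5.89, 5.94, 5.96, 5.91 and 6.08 after 48 h. WT dishes gave 5.82, 5.82, 5.96, 6.00 and 5.91 in WT basal dishes, 6.31, 5.87, 6.09, 6.11 and 6.08 after 24 h and 5.99, 6.04, 6.12, 6.12 and 6.18 after 48 h for Psmd14. All KO 48 h arrays lay above the KO basal arrays, whereas WT 48 h and basal arrays overlapped. Psmd7, the partner of Psmd14 in the lid, rose by 0.40 ± 0.13 (adjusted p = 0.0186) in WT dishes and changed by 0.32 ± 0.13 (adjusted p = 0.0622) in KO dishes. The Psmd7 rise rests on its brightest probe set: the mean over its probe sets changed by -0.043 in WT dishes. All 3 tested base subunits other than ATPases (Psmd1, Psmd2 and Psmd4), which bind ubiquitin chains and shuttle proteins, rose in KO dishes, and 1 of 3 did so in WT dishes, with changes of 0.219 to 0.242 and 0.149 to 0.236.

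Alpha-ring subunits form the gate of the core. At 48 h 2 of 7 rose and 1 fell in KO dishes, against 19.4% and 9.47% of all tested genes. In WT dishes 2 rose, against 20.5%. Psma1 had 3.96, 4.30, 4.22, 4.30 and 4.29 in KO basal dishes, 4.34, 4.42, 4.45, 4.23 and 4.41 after 24 h and 4.52, 4.58, 4.67, 4.50 and 4.59 after 48 h. Its signals in WT dishes were 4.28, 4.40, 4.39, 4.51 and 4.37 in WT basal dishes, 4.63, 4.63, 4.47, 4.48 and 4.52 after 24 h and 4.54, 4.64, 4.73, 4.77 and 4.92 after 48 h. Basal and 48 h arrays did not overlap in either genotype, and KO basal replicate 1 was the lowest of all 30 arrays. Psma1 rose by 0.36 ± 0.067 (adjusted p = 0.000149) in KO and by 0.33 ± 0.067 (adjusted p = 0.000292) in WT dishes. As the mean of its probe sets Psma1 changed by 0.21 (adjusted p = 0.179) in KO and by 0.25 (adjusted p = 0.0931) in WT dishes. In WT dishes its call was also lost with the Gapdh ratio in the model, at 0.23 (adjusted p = 0.0504), and with replicates 1 and 2 alone, at 0.20 (adjusted p = 0.12). Psma5 was the gene that fell in KO dishes, by 0.15 ± 0.051 on the log2 scale (adjusted p = 0.0303), while another of its probe sets changed by 0.071 (adjusted p = 0.355).

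Among the 7 constitutive beta subunits 4 rose in KO and 3 in WT dishes after 48 h, against 19.4% and 20.5% of all tested genes. Psmb7, which carries the trypsin-like activity, had 4.17, 4.23, 4.26, 4.31 and 4.42 in KO basal dishes, 4.20, 4.67, 4.53, 4.53 and 4.61 after 24 h and 4.77, 4.83, 4.55, 4.51 and 4.53 after 48 h. WT dishes read 4.03, 4.21, 4.32, 4.24 and 4.02 in WT basal dishes, 4.56, 4.47, 4.60, 4.42 and 4.54 after 24 h and 4.36, 4.49, 4.48, 4.52 and 4.90 after 48 h. All BDNF arrays lay above the basal ones in WT dishes at both times and in KO dishes at 48 h, while KO 24 h replicate 1 lay among the basal arrays. The rise at 48 h was 0.36 ± 0.087 (adjusted p = 0.00227) in KO and 0.39 ± 0.087 (adjusted p = 0.000789) in WT dishes. Psmb5, the chymotrypsin-like subunit, had 5.17, 5.05, 5.10, 5.11 and 5.29 in KO basal dishes, 5.18, 5.34, 5.25, 5.43 and 5.32 after 24 h and 5.29, 5.27, 5.34, 5.35 and 5.39 after 48 h. Its WT signals were 5.17, 5.22, 5.25, 5.26 and 5.17 in WT basal dishes, 5.33, 5.36, 5.34, 5.40 and 5.46 after 24 h and 5.20, 5.43, 5.38, 5.50 and 5.44 after 48 h. Basal and 48 h arrays overlapped through KO basal replicate 5 and WT 48 h replicate 1. Psmb5 rose by 0.19 ± 0.054 (adjusted p = 0.00911) in KO and by 0.17 ± 0.054 (adjusted p = 0.0121) in WT dishes. Psmb6, the caspase-like subunit, rose by 0.22 ± 0.078 (adjusted p = 0.0352) in KO dishes and changed by 0.058 ± 0.078 (adjusted p = 0.593) in WT dishes. The Psmb6 signals were 4.47, 4.53, 4.59, 4.73 and 5.00 in KO basal dishes, 4.73, 5.06, 5.01, 5.15 and 4.98 after 24 h and 4.77, 4.76, 4.98, 4.93 and 4.96 after 48 h. WT dishes had 4.88, 4.98, 5.03, 4.95 and 4.83 in WT basal dishes, 5.09, 5.00, 5.08, 5.01 and 5.16 after 24 h and 4.85, 5.11, 4.94, 5.08 and 4.99 after 48 h. The KO basal dishes ranged most widely, with replicate 5 among the BDNF arrays.

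**Figure D2:**
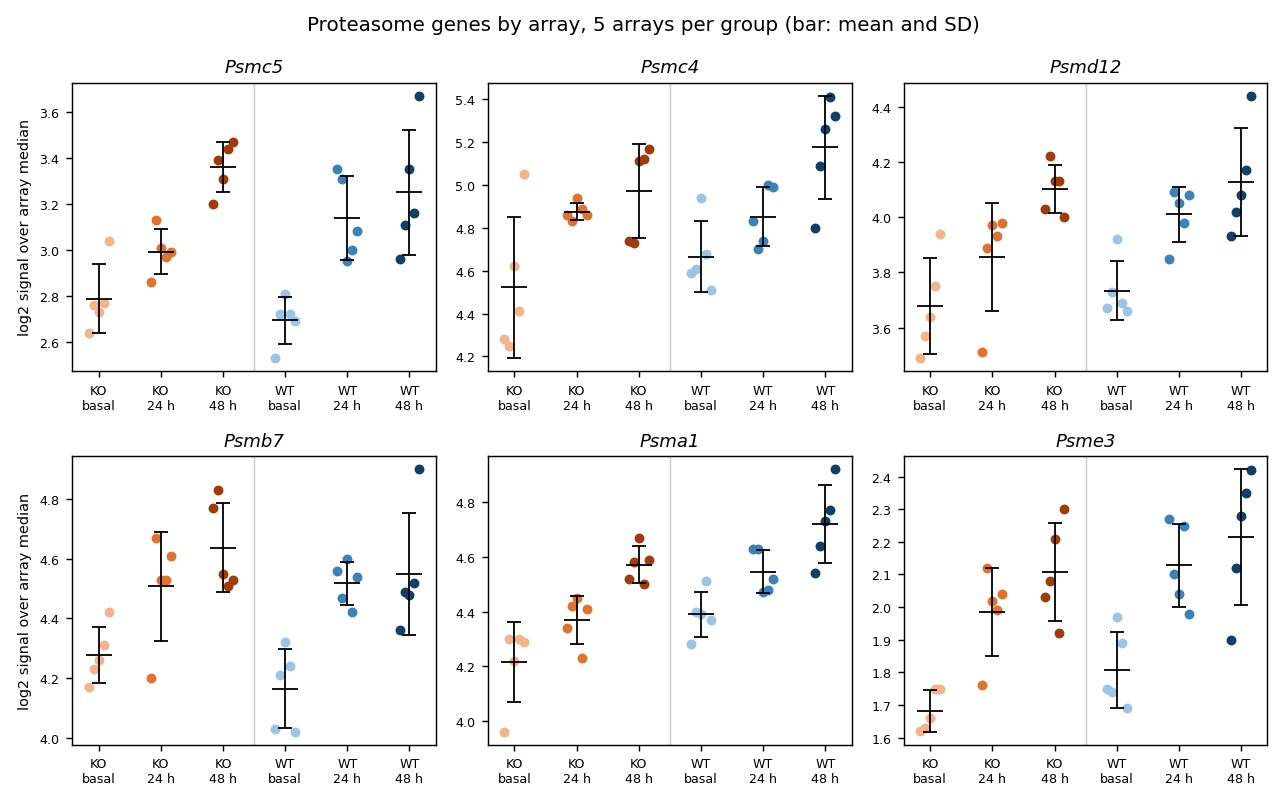
Log2 signal over the array median (y axis) of 6 proteasome genes on each array (points), with the mean and SD of 5 arrays, in KO and WT dishes under basal conditions and after 24 h and 48 h of BDNF. Psmc5, Psmd12, Psmb7 and Psma1 show 48 h arrays above all basal arrays in both genotypes. KO basal replicate 5 is the highest KO basal point in Psmc5, Psmc4, Psmd12 and Psmb7.

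The activators open the core without ubiquitin. Psme3, a nuclear activator subunit (PA28 gamma), had 1.62, 1.63, 1.66, 1.75 and 1.75 in KO basal dishes, 1.76, 2.12, 2.02, 1.99 and 2.04 after 24 h and 2.03, 2.08, 2.21, 1.92 and 2.30 after 48 h. In WT dishes it read 1.75, 1.74, 1.97, 1.89 and 1.69 in WT basal dishes, 2.27, 2.10, 2.04, 2.25 and 1.98 after 24 h and 1.90, 2.12, 2.28, 2.35 and 2.42 after 48 h. The KO arrays with BDNF all lay above the KO basal arrays at both times, as did the WT 24 h arrays above theirs, while WT 48 h replicate 1 lay within the WT basal range. Psme3 rose by 0.43 ± 0.089 (adjusted p = 0.000511) in KO and by 0.41 ± 0.089 (adjusted p = 0.000648) in WT dishes at 48 h. Its dimmer probe set, tested as a row of its own, changed by 0.017 in KO and by 0.48 in WT dishes. Psme1, the PA28 alpha subunit that interferon induces, had 2.96, 2.81, 2.86, 2.86 and 2.96 in KO basal dishes, 2.86, 2.89, 2.88, 2.84 and 2.99 after 24 h and 3.16, 3.14, 3.09, 3.23 and 3.27 after 48 h. WT dishes had 3.02, 3.05, 3.14, 3.07 and 3.12 in WT basal dishes, 3.13, 3.04, 3.02, 3.05 and 3.12 after 24 h and 3.07, 3.15, 3.23, 3.27 and 3.50 after 48 h. Its signals at 48 h lay above all basal signals in KO dishes and overlapped in WT dishes. The change at 48 h was 0.29 ± 0.063 (adjusted p = 0.00078) in KO and 0.17 ± 0.063 (adjusted p = 0.0378) in WT dishes, and without WT 48 h replicate 5 the WT change was 0.10 (adjusted p = 0.187). Psmf1, an inhibitor of the core, rose by 0.25 ± 0.075 (adjusted p = 0.0117) in KO dishes, and among its 4 probe sets changes ran from -0.4 to 0.251. It is named because it is the single gene of its class.

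Assembly factors did not move as one group. The chaperones of the regulatory particle (Psmd5, Psmd9 and Psmd10) rose in 2 of 3 cases in KO and 0 of 3 in WT dishes at 48 h, with Psmd9 at 0.29 ± 0.088 (adjusted p = 0.0125) in KO dishes. The shares of all tested genes that rose were 19.4% in KO and 20.5% in WT dishes. Of the 4 core assembly chaperones (Psmg1 to Psmg4) none rose at either time by limma. Over all 45 proteasome genes, 29 in KO and 24 in WT dishes had an unadjusted limma p under 0.05 at 48 h. The share of all tested genes under that looser limit was not counted, so these counts cannot be read against it. Psmg3, a chaperone of alpha-ring assembly, fell in WT dishes, with a change of -0.36 ± 0.12 (adjusted p = 0.0237). Neither Psmc3ip nor Psme3ip1 passed the threshold in a BDNF comparison.

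Genes with several probe sets did not always read alike. Of 17 proteasome genes with more than 1 tested probe set, 10 had changes of 1 sign over all of them in KO dishes at 48 h and 11 in WT dishes. Psmd6, a lid subunit, changed by 0.046 ± 0.057 (adjusted p = 0.567) in KO and 0.086 ± 0.057 (adjusted p = 0.244) in WT dishes by its brightest probe set, and by 0.59 (adjusted p = 4.88e-06) and 0.49 (adjusted p = 4.21e-05) by a dimmer one. For the ATPase Psmc6 the brightest gave 0.11 ± 0.061 (adjusted p = 0.181) in KO and 0.14 ± 0.061 (adjusted p = 0.0704) in WT dishes, and a dimmer one 0.45 (adjusted p = 0.000219) and 0.46 (adjusted p = 9.13e-05). With each of the 70 tested probe sets as a row of its own, 28 rose and 2 fell in KO dishes at 48 h, against 18.2% and 8.12% of all tested probe sets, and 23 rose and 1 fell in WT dishes, against 21.1% and 13.3%. With the mean of probe sets in place of the brightest, 15 of the 61 named calls of all comparisons were lost. At 48 h these included Psme3 and Psmd9 in KO dishes, at 0.044 (adjusted p = 0.797) and 0.15 (adjusted p = 0.247). Psmd6 and Psmc6 were chosen for this comparison after their values were seen.

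Leaving out 1 array at a time gave 15 to 26 calls at 48 h in KO and 12 to 20 in WT dishes. Of the named 48 h calls, 9 of 11 in KO and 8 of 11 in WT dishes held without any single array. In KO dishes those of Psma5 and Psmb6 were each lost without any one of 6 arrays, with adjusted p up to 0.0825 and 0.128. In WT dishes Psmd7 and Psmg3 were each lost without any one of 3 arrays, with adjusted p up to 0.0809 and 0.0725, and Psme1 without any one of 6.

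After 24 h of BDNF the rises were fewer. In KO dishes 8 of 45 proteasome genes rose and 0 fell, against 5.96% and 5.55% of all tested genes, and in WT dishes 9 rose and 0 fell, against 8.04% and 6.4%. In KO dishes 2 genes had all BDNF arrays above all basal arrays and 1 had them all below, against 4.42% and 4.9% of all tested genes, and in WT dishes these were 6 and 0, against 6.32% and 4.17%. Their median change was 0.119 in KO and 0.122 in WT dishes, beside medians over all tested genes of 0.005 and 0.006. The 24 h and 48 h comparisons of a genotype share its basal arrays. In the core, 3 of 7 constitutive beta subunits rose in KO and 4 in WT dishes. Psmb6 rose by 0.32 ± 0.078 (adjusted p = 0.00601) in KO dishes and changed by 0.13 ± 0.078 (adjusted p = 0.263) in WT dishes. Psmb5 rose by 0.16 ± 0.054 (adjusted p = 0.0453) in KO and by 0.16 ± 0.054 (adjusted p = 0.0389) in WT dishes. Psmb3, a structural beta subunit, rose by 0.18 ± 0.059 (adjusted p = 0.0432) in KO and by 0.21 ± 0.059 (adjusted p = 0.0124) in WT dishes, where at 48 h it changed by 0.004 ± 0.059 (adjusted p = 0.964) and 0.010 ± 0.059 (adjusted p = 0.907). Psmb7 rose by 0.35 ± 0.087 (adjusted p = 0.00497) in WT dishes and changed by 0.23 ± 0.087 (adjusted p = 0.0883) in KO dishes. Psmb4, another structural beta subunit, rose by 0.24 ± 0.082 (adjusted p = 0.0468) in WT dishes by its brightest probe set, while the mean over its probe sets changed by 0.011 (adjusted p = 0.955). Psma4 of the alpha ring rose by 0.32 ± 0.091 (adjusted p = 0.0202) in KO dishes.

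In the regulatory particle at 24 h, Psmc5 rose by 0.44 ± 0.098 (adjusted p = 0.00208) in WT dishes and Psmc4 by 0.35 ± 0.12 (adjusted p = 0.0452) in KO dishes. Psmd2, a base subunit that is not an ATPase, rose by 0.26 ± 0.077 (adjusted p = 0.0271) in KO and by 0.28 ± 0.077 (adjusted p = 0.0124) in WT dishes. Psmd13 of the lid rose by 0.28 ± 0.080 (adjusted p = 0.0197) in KO dishes. In WT dishes Psmd12 rose by 0.28 ± 0.090 (adjusted p = 0.0364) and Psmd14 by 0.19 ± 0.060 (adjusted p = 0.0282). Among the activators Psme3 rose by 0.30 ± 0.089 (adjusted p = 0.0233) in KO and by 0.32 ± 0.089 (adjusted p = 0.0145) in WT dishes, while Psme1 changed by -0.002 ± 0.063 (adjusted p = 0.99) and -0.004 ± 0.063 (adjusted p = 0.976). The mean over the probe sets of Psme3 changed by 0.064 (adjusted p = 0.766) in KO and by 0.18 (adjusted p = 0.285) in WT dishes. Psmb10 changed by -0.085 ± 0.12 (adjusted p = 0.711) in KO and by 0.021 ± 0.12 (adjusted p = 0.925) in WT dishes.

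The 24 h calls depended on single arrays more than those at 48 h. The KO count of 8 became 1 without KO 24 h replicate 2, 2 without replicate 4 and 3 without replicate 5. It became 3 without KO basal replicate 1, 2 or 3 and 4 without replicate 4, and was 12 at most. Psmb6 was the 1 named call of 8 in KO dishes that held without any single array, and the other 7 were lost without 3 to 9 of the 10 arrays, with adjusted p up to 0.152. The WT count of 9 became 4 without WT basal replicate 1 and 5 without replicate 2. Psmc5, Psmb7, Psme3 and Psmb3 held in WT dishes without any single array, Psmd2 was lost without WT basal replicate 1 (adjusted p = 0.0508), and the other 4 without 5 to 8 arrays (adjusted p up to 0.135).

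**Figure D3:**
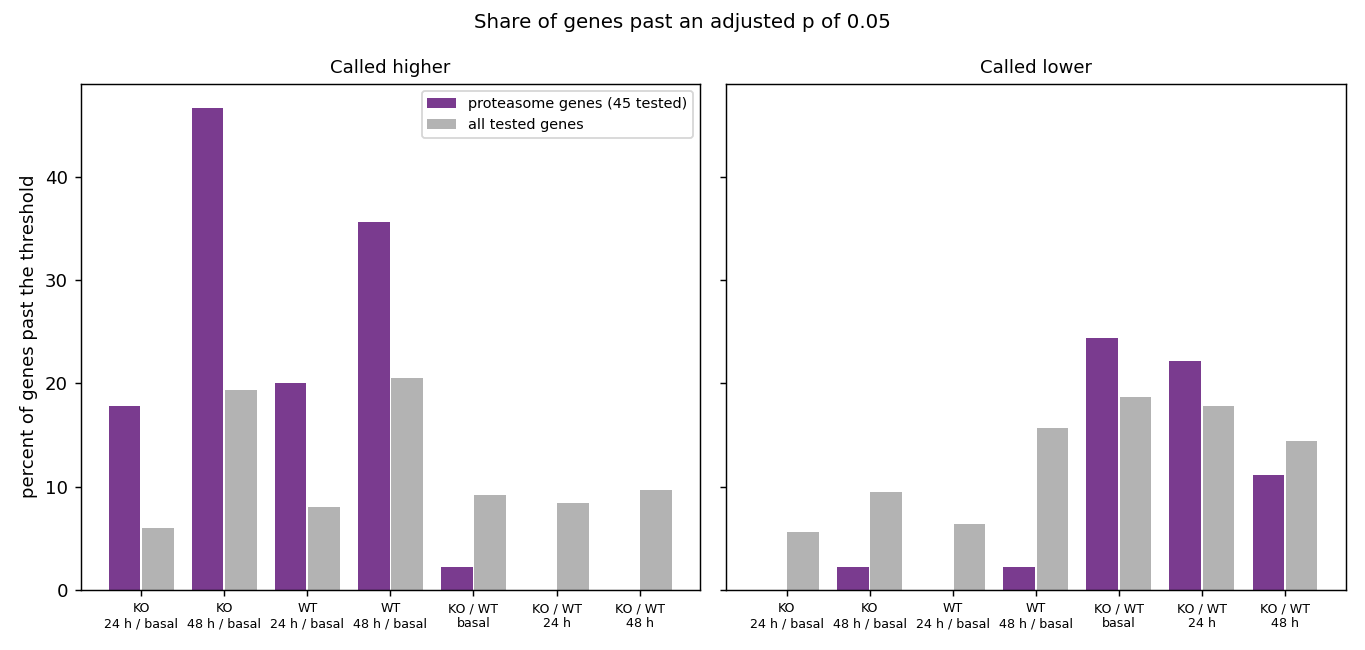
Percent of genes past an adjusted p of 0.05 (y axis) that were higher (left) or lower (right) in each of 7 comparisons, for the 45 tested proteasome genes beside all 7436 tested genes. Bars of the proteasome genes exceed those of all genes among higher calls under BDNF, with 46.7% against 19.4% in KO dishes at 48 h, and are near them among lower calls between genotypes.

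The basal arrays of KO dishes differed among themselves across the whole gene set. On KO basal replicate 5, 43 of 45 tested genes lay above the KO basal mean, by a median of 0.162, while on the other 4 KO basal arrays 7 to 27 did. KO 24 h replicate 1 had 15 genes above the KO basal mean, with a median of -0.044, and the other 24 h arrays had 31 to 39. In WT dishes 7 to 34 genes lay above the WT basal mean on basal arrays, 33 to 36 on 24 h arrays and 26 to 40 on 48 h arrays. WT 48 h replicate 1 was the array with 26. The KO 48 h arrays had 35 to 38.

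**Figure D4:**
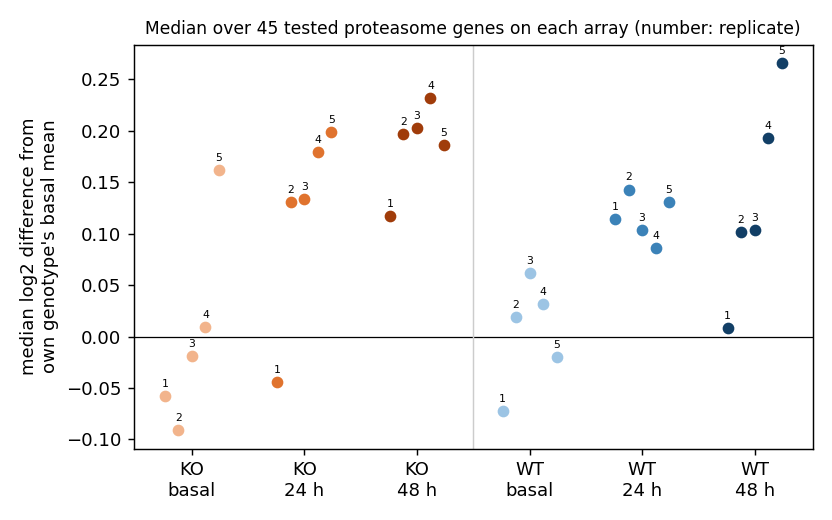
Median over the 45 tested proteasome genes of the log2 difference from the genotype's own basal mean (y axis), 1 point per array, numbered by replicate. KO basal replicate 5 (0.162) lies with the BDNF arrays and KO 24 h replicate 1 (-0.044) with the basal arrays. All 48 h arrays lie above 0, but WT 48 h replicate 1 (0.008) is within the range of the WT basal arrays (-0.072 to 0.062).

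Arrays labelled KO were compared with WT at each time to ask how loss of Xbp1 bears on these genes. Xbp1 itself does not check the labels: its log2 signals were 4.53, 4.65, 4.68, 4.70 and 4.70 in KO basal dishes, against 4.37, 4.47, 4.44, 4.46 and 4.40 in WT basal dishes. The KO signal was higher at basal, by 0.22 ± 0.060 (adjusted p = 0.00498), and the difference was 0.075 ± 0.060 (adjusted p = 0.37) at 24 h and 0.10 ± 0.060 (adjusted p = 0.233) at 48 h. Whether the probes lie in the deleted part of the gene is not given in the sources used here, so the genotype rests on the labels. At 24 h the Xbp1 signals were 4.53, 4.63, 4.70, 4.63 and 4.63 in KO and 4.68, 4.47, 4.55, 4.50 and 4.55 in WT dishes. At 48 h they were 4.74, 4.67, 4.76, 4.65 and 4.87 in KO and 4.43, 4.54, 4.70, 4.70 and 4.82 in WT dishes.

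In the dishes labelled KO more proteasome genes were lower than higher. The share that was lower was near that of all tested genes, and the share that was higher was below it. At basal 1 proteasome gene was higher and 11 lower in KO dishes, against 9.2% and 18.7% of all tested genes. At 24 h 0 were higher and 10 lower, against 8.43% and 17.8%, and at 48 h 0 higher and 5 lower, against 9.68% and 14.4%. In percent of the 45 genes, the lower calls were 24.4%, 22.2% and 11.1%. The median difference was -0.094, -0.108 and -0.061, beside -0.091, -0.095 and -0.073 over all tested genes. KO and WT arrays did not overlap in 1 gene that was higher and 7 that were lower at basal, against 7.05% and 11.9% of all tested genes. At 24 h these were 1 and 5, against 6.46% and 11.2%, and at 48 h 0 and 2, against 7.72% and 8.97%.

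Cell type markers differed between genotypes too, beside the 18.7%, 17.8% and 14.4% of all tested genes that were lower at basal, 24 h and 48 h. Of 5 neuronal markers 1 was lower in KO dishes at basal, 2 at 24 h and 3 at 48 h. Dcx, a marker of young neurons, differed by -0.21 ± 0.047 (adjusted p = 0.000656), -0.24 ± 0.047 (adjusted p = 0.000129) and -0.25 ± 0.047 (adjusted p = 8.26e-05), and Map2, a dendritic protein, by -0.72 ± 0.20 (adjusted p = 0.00739) at 48 h. Of 5 progenitor markers 2, 3 and 2 were lower, among them Sox2 by 0.55 ± 0.080 on the log2 scale (adjusted p = 2.11e-06), 0.59 ± 0.080 on the log2 scale (adjusted p = 6e-07) and 0.52 ± 0.080 on the log2 scale (adjusted p = 5.69e-06), and 1, Vim, was higher at each time. Of 2 tested astrocyte markers 2, 1 and 1 were lower. The summed signal of the neuronal markers at 24 h was 155.61 to 186.15 array medians in KO and 179.45 to 196.74 in WT dishes, that of the progenitor markers 65.41 to 74.65 and 64.64 to 75.79, and that of 5 measured astrocyte markers 1.94 to 2.32 and 2.49 to 3.32. The part of these markers in the proteasome differences was not tested.

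The balance of higher and lower genes depended on the scaling. Quantile normalization left 2 higher and 4 lower at basal, against 11.7% and 13.3% of all tested genes, 0 and 4 at 24 h, against 10.3% and 9.71%, and 1 and 2 at 48 h, against 11.3% and 9.95%. Scaling to the 75th percentile left 1 higher and 6 lower at basal, against 11.2% and 13%, 0 and 6 at 24 h, against 10.1% and 11.2%, and 1 and 3 at 48 h, against 11% and 11.1%. On the values as deposited 1 was higher and 0 lower at basal, against 8.31% and 3.01%, and 1 and 0 at 24 h, against 9.83% and 1.96%. At 48 h 0 passed the threshold by limma on those values, against 7.76% higher and 4.1% lower. On the median-scaled values 10 of 45 had an unadjusted limma p under 0.05, a count with no share of all tested genes to set beside it.

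The 2 genes outside the particle were lower in KO dishes at basal and at 24 h. Psmc3ip, a cofactor of meiotic recombination that bears the name of a proteasome ATPase, had 1.19, 0.99, 1.15, 1.09 and 1.25 in KO basal dishes, 0.64, 0.99, 0.82, 0.95 and 1.10 after 24 h and 0.81, 1.07, 1.10, 1.18 and 0.89 after 48 h. Its WT signals were 1.34, 1.28, 1.50, 1.53 and 1.58 in WT basal dishes, 1.41, 1.74, 1.32, 1.29 and 1.54 after 24 h and 1.49, 1.22, 1.53, 1.44 and 1.18 after 48 h. KO and WT arrays did not overlap at basal or at 24 h. The KO difference was -0.31 ± 0.099 (adjusted p = 0.0169) at basal, -0.56 ± 0.099 (adjusted p = 4.4e-05) at 24 h and -0.36 ± 0.099 (adjusted p = 0.00624) at 48 h. Psme3ip1, a partner of PA28 gamma, differed by -0.27 ± 0.075 (adjusted p = 0.00693) at basal and by -0.20 ± 0.075 (adjusted p = 0.047) at 24 h.

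Among assembly chaperones Psmg2, which pairs with Psmg1 in building the alpha ring, had 1.98, 1.78, 1.74, 1.98 and 1.97 in KO basal dishes, 1.88, 2.02, 1.70, 1.96 and 1.84 after 24 h and 1.56, 1.80, 1.79, 1.92 and 1.72 after 48 h. WT dishes read 1.66, 2.28, 2.20, 2.21 and 2.34 in WT basal dishes, 2.31, 2.42, 1.99, 2.34 and 2.37 after 24 h and 2.15, 2.01, 2.04, 2.17 and 2.19 after 48 h. All WT arrays lay above the KO arrays at 48 h, and the groups overlapped through WT basal replicate 1 and WT 24 h replicate 3. The difference was -0.40 ± 0.099 (adjusted p = 0.00243) at 24 h, -0.35 ± 0.099 (adjusted p = 0.00792) at 48 h and -0.25 ± 0.099 (adjusted p = 0.0554) at basal. Psmg4, another chaperone of the core, differed by -0.25 ± 0.095 (adjusted p = 0.0431) at basal.

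In the lid Psmd11, a subunit tied to proteasome assembly in stem cells, had 4.91, 4.82, 4.94, 5.05 and 5.01 in KO basal dishes, 4.79, 4.93, 4.87, 4.77 and 4.89 after 24 h and 5.05, 4.98, 4.93, 4.94 and 4.94 after 48 h. WT signals were 5.09, 5.10, 5.14, 5.12 and 5.00 in WT basal dishes, 5.14, 5.13, 5.19, 5.12 and 5.11 after 24 h and 4.98, 4.99, 4.96, 5.07 and 5.15 after 48 h. KO and WT arrays were separate at 24 h, overlapped at a single value at basal, and overlapped at 48 h. Psmd11 differed by -0.29 ± 0.049 (adjusted p = 2.37e-05) at 24 h. Psmd14 differed by -0.24 ± 0.060 (adjusted p = 0.00297) and Psmd6, another lid subunit, by -0.23 ± 0.057 (adjusted p = 0.00305) at 24 h. Psmd11 has several probe sets, and under BDNF for 48 h in KO dishes 1 of them changed by 0.44 and another by -0.49, each past the threshold. As the mean of probe sets the 24 h difference was -0.15 (adjusted p = 0.134) for Psmd11 and -0.15 (adjusted p = 0.0715) for Psmd6, and quantile normalization gave -0.13 (adjusted p = 0.0672) for Psmd6.

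In the core the Psmb6 difference was -0.27 ± 0.078 (adjusted p = 0.00844) at basal, -0.083 ± 0.078 (adjusted p = 0.453) at 24 h and -0.11 ± 0.078 (adjusted p = 0.31) at 48 h. Psma2 and Psma7 of the alpha ring differed by -0.21 ± 0.057 (adjusted p = 0.00644) and -0.20 ± 0.054 (adjusted p = 0.00567) at basal, and Psma1 by -0.18 ± 0.067 (adjusted p = 0.0447). Psma7 differed by -0.17 ± 0.054 (adjusted p = 0.021) and Psma5 by -0.14 ± 0.051 (adjusted p = 0.0376) at 48 h. The ATPase Psmc6 differed by -0.17 ± 0.061 (adjusted p = 0.0415) at 24 h and -0.17 ± 0.061 (adjusted p = 0.0431) at 48 h. Psmb5 differed by -0.074 ± 0.054 (adjusted p = 0.317), -0.073 ± 0.054 (adjusted p = 0.321) and -0.061 ± 0.054 (adjusted p = 0.437) at basal, 24 h and 48 h, and Psmb7 by 0.12 ± 0.087 (adjusted p = 0.328), -0.010 ± 0.087 (adjusted p = 0.945) and 0.088 ± 0.087 (adjusted p = 0.493). None of those 6 differences passed the threshold. As the mean of probe sets the calls of Psma1 at basal, Psmc6 at 24 h and 48 h and Psma7 at 48 h were lost, with -0.047 (adjusted p = 0.804), -0.080 (adjusted p = 0.518), -0.13 (adjusted p = 0.284) and -0.11 (adjusted p = 0.13).

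Leaving out single arrays changed these genotype counts as well. The basal count of 12 became 6 without KO basal replicate 2 or WT basal replicate 4, and 7 without KO basal replicate 1 or WT basal replicate 3 or 5. The 24 h count of 10 became 6 without KO or WT 24 h replicate 1. The 48 h count of 5 became 2 without KO 48 h replicate 1 or WT 48 h replicate 2, and 3 without KO 48 h replicate 2, 3 or 4 or WT 48 h replicate 4. Psmb6, Psme3ip1, Psma2 and Psma7 at basal held without any single array. Psmc3ip at basal was lost without KO basal replicate 2 (adjusted p = 0.0554), and Psmb10, Psmg4, Psme1 and Psma1 were lost without 4 to 7 arrays. At 24 h Psmc3ip, Psmg2, Psmd11, Psmd14 and Psmd6 held without any single array, while Psme3ip1, Psme1 and Psmc6 were lost without 4 to 7 arrays, with adjusted p up to 0.219. At 48 h Psmc3ip and Psmg2 held in the same sense, and Psma7, Psmc6 and Psma5 were lost without 4 to 8 arrays.

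The interferon-inducible catalytic subunits were higher in KO dishes where they passed the test. Psmb10, which replaces Psmb7 in the immunoproteasome, had 1.67, 1.46, 1.69, 1.42 and 1.76 in KO basal dishes, 1.47, 1.48, 1.61, 1.51 and 1.49 after 24 h and 1.72, 1.53, 1.17, 1.41 and 0.95 after 48 h. WT dishes had 1.28, 1.36, 1.41, 1.02 and 1.17 in WT basal dishes, 1.45, 1.22, 1.23, 1.34 and 1.11 after 24 h and 1.30, 1.34, 0.93, 1.50 and 0.86 after 48 h. All KO arrays lay above all WT arrays at basal and 24 h, and the groups overlapped at 48 h. The KO difference was 0.35 ± 0.12 (adjusted p = 0.025) at basal, 0.24 ± 0.12 (adjusted p = 0.126) at 24 h and 0.17 ± 0.12 (adjusted p = 0.322) at 48 h. Psmb10 did not pass the threshold under BDNF at 48 h, with changes of -0.24 ± 0.12 (adjusted p = 0.123) in KO and -0.060 ± 0.12 (adjusted p = 0.722) in WT dishes.

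Psmb8, which replaces Psmb5, lay below the array median on all arrays and was tested in the fit with no filter on dim genes. Its signals were -0.45, -0.52, -0.67, -1.07 and -0.63 in KO basal dishes, -0.47, -0.89, -0.65, -0.95 and -0.79 after 24 h and -1.07, -0.43, -0.75, -0.73 and -0.50 after 48 h. WT dishes had -0.96, -1.35, -1.36, -1.63 and -1.57 in WT basal dishes, -1.12, -1.95, -0.98, -1.42 and -1.70 after 24 h and -1.23, -1.62, -1.24, -1.23 and -2.21 after 48 h. All KO arrays lay above all WT arrays at 24 h and at 48 h, and KO basal replicate 4 lay below WT basal replicate 1. In that fit Psmb8 was higher in KO dishes by 0.71 ± 0.19 (adjusted p = 0.0109) at basal, 0.69 ± 0.19 (adjusted p = 0.014) at 24 h and 0.81 ± 0.19 (adjusted p = 0.00374) at 48 h. It held without any single array, and with only replicates 1 and 2 at 48 h the difference was 0.68 (adjusted p = 0.206). Psmb9, which replaces Psmb6 and is likewise dim, had -0.59, -0.85, -0.97, -0.53 and -0.63 in KO basal dishes, -0.97, -0.85, -1.0, -0.84 and -0.68 after 24 h and -0.51, -1.06, -0.80, -1.08 and -0.88 after 48 h. WT signals were -0.93, -0.95, -0.92, -0.99 and -0.86 in WT basal dishes, -0.71, -1.31, -0.90, -1.26 and -0.92 after 24 h and -1.32, -1.45, -1.10, -1.24 and -1.23 after 48 h. The KO difference was 0.22 ± 0.12 (adjusted p = 0.229) at basal, 0.16 ± 0.12 (adjusted p = 0.41) at 24 h and 0.40 ± 0.12 (adjusted p = 0.0164) at 48 h, and the WT change after 48 h of BDNF was -0.34 ± 0.12 (adjusted p = 0.0363). Without KO 48 h replicate 1 or WT 48 h replicate 2 the Psmb9 difference at 48 h was 0.31 (adjusted p = 0.0719) or 0.36 (adjusted p = 0.0533). The WT change at 48 h was lost without any one of 8 arrays, with adjusted p up to 0.0856. Quantile normalization gave -0.26 (adjusted p = 0.151) and the Gapdh covariate -0.31 (adjusted p = 0.223) for it, both with no filter. With replicates 1 and 2 alone it was -0.46 (adjusted p = 0.0985), and on the values as deposited -0.027 (adjusted p = 0.937). It kept its call with the 75th percentile, at -0.41 (adjusted p = 0.00992), and with the replicate block, at -0.34 (adjusted p = 0.0263). In the fit with no filter, 6.45% of genes were higher in KO dishes at basal, 6.03% at 24 h and 6.79% at 48 h, and 10.8% fell in WT dishes at 48 h. Psme1, also an interferon target, was lower in KO dishes at basal and 24 h, with differences of -0.19 ± 0.063 (adjusted p = 0.024) and -0.18 ± 0.063 (adjusted p = 0.0271), and -0.064 ± 0.063 (adjusted p = 0.491) at 48 h.

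**Figure D5:**
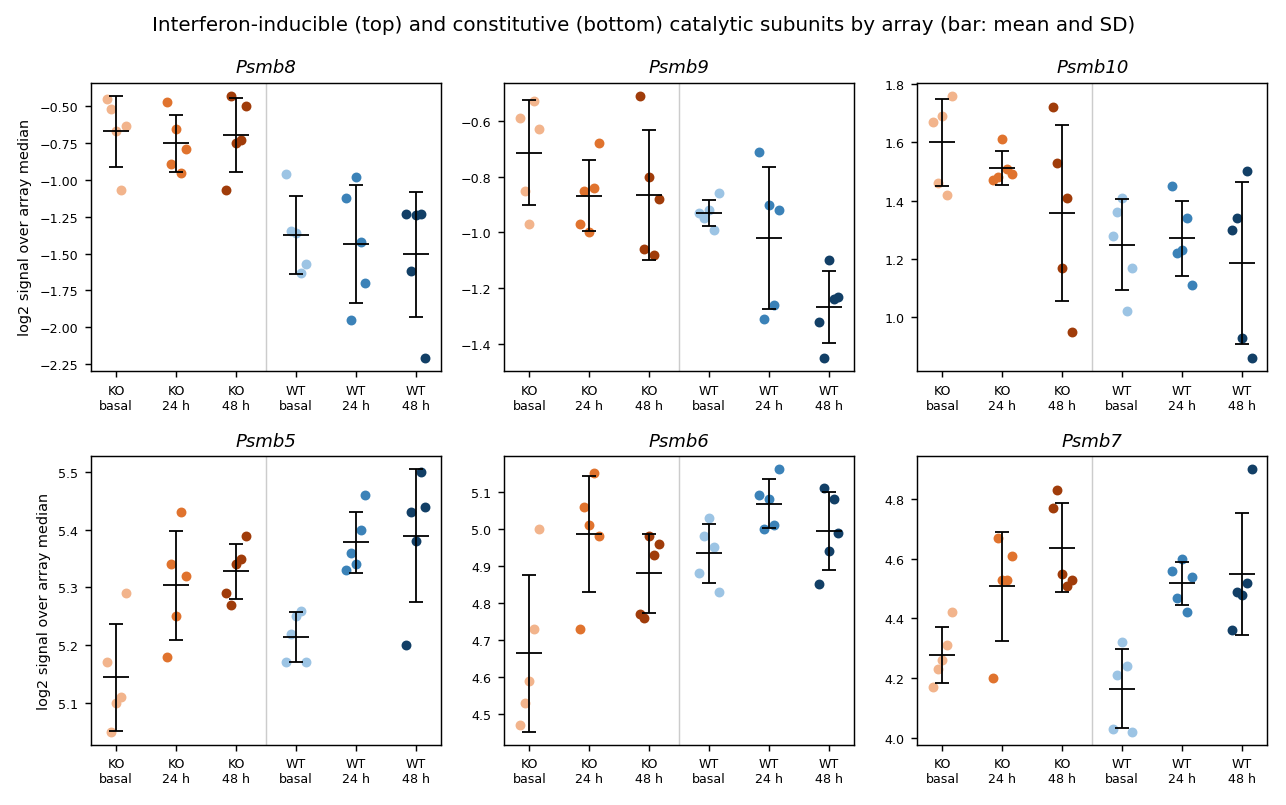
Log2 signal over the array median (y axis) on each array (points), with mean and SD of 5 arrays, for the interferon-inducible catalytic subunits Psmb8, Psmb9 and Psmb10 (top) and the constitutive ones Psmb5, Psmb6 and Psmb7 (bottom), in KO and WT dishes. All Psmb10 points of KO dishes lie above those of WT dishes at basal and 24 h, and Psmb5 and Psmb7 are higher after 48 h of BDNF than at basal in both genotypes.

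Psmb8 and Psmb9 stand next to the peptide transporter genes Tap1 and Tap2 on chromosome 17 in the GRCm38.p6 gene table, in the order Psmb9, Tap1, Psmb8 and Tap2. Of 9 tested genes of interferon response and MHC class I presentation, 6 were higher in KO dishes at basal, 6 at 24 h and 9 at 48 h, against 9.2%, 8.43% and 9.68% of all tested genes, and none was lower by limma. Ifit1 and Ifit3, interferon-induced RNA-binding proteins, were higher by 1.16 ± 0.14 (adjusted p = 2.34e-08) and 0.90 ± 0.13 (adjusted p = 2.6e-06) at basal. Gbp2, an interferon-induced GTPase, was higher by 0.79 ± 0.14 (adjusted p = 7.71e-05) at 24 h and 1.06 ± 0.14 (adjusted p = 5.31e-07) at 48 h. The summed signal of the list's 10 measured genes was 41.66 to 43.16 array medians in KO basal dishes, against 27.99 to 34.44 in WT basal dishes. At 24 h it was 35.53 to 40.13 in KO and 26.93 to 29.05 in WT dishes, and at 48 h 37.9 to 43.76 and 22.32 to 27.16. After 48 h of BDNF 5 of the 9 fell in WT dishes, against 15.7% of all tested genes. In KO dishes 2 fell and 1 rose, against 9.47% falling and 19.4% rising. The Psmb9 change in WT dishes at 48 h, given above, passed the threshold under some of the fits only.

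Microglia are a cell type known to express interferon-responsive and MHC class I genes, and some of their markers were higher in KO dishes too. Of 4 tested microglial markers 1 was higher in KO dishes at basal, 2 at 24 h and 3 at 48 h, against 9.2%, 8.43% and 9.68% of all tested genes. C1qb, a complement subunit, was higher by 0.62 ± 0.18 (adjusted p = 0.00726) at basal and by 0.80 ± 0.18 (adjusted p = 0.000696) at 48 h, and C1qa by 0.89 ± 0.20 (adjusted p = 0.0012) at 24 h. The summed signal of 7 microglial markers was 8.04 to 9.7 in KO and 7.06 to 8.36 in WT basal dishes, 7.29 to 8.04 and 5.32 to 7.28 at 24 h, and 6.91 to 8.65 and 4.48 to 6.57 at 48 h. Aif1, C1qa, Tyrobp, Cx3cr1 and Ptprc averaged below the array median over the 30 arrays, and none of the 7 stood at the floor on every array. After 48 h of BDNF 2 of the 4 tested fell in WT dishes, Tyrobp by 0.75 ± 0.17 on the log2 scale (adjusted p = 0.00078) and Csf1r by 0.36 ± 0.11 on the log2 scale (adjusted p = 0.0102). The part of these markers in the Psmb8, Psmb9 and Psmb10 differences and in the Psmb9 change in WT dishes at 48 h was not tested.

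Each response to BDNF was compared between genotypes as the difference of the changes, KO minus WT. No proteasome gene passed the threshold by limma at 24 h or at 48 h, where 0.0941% and 0.134% of all tested genes did. An unadjusted limma p under 0.05 was found for 2 and 0 of 45, with no share of all tested genes to set beside them. The differences ranged from -0.248 to 0.19 at 24 h and from -0.183 to 0.216 at 48 h. For Psmb6 the difference was 0.19 ± 0.11 (adjusted p = 0.893) at 24 h and 0.16 ± 0.11 (adjusted p = 0.853) at 48 h. Psmb5 gave 0.001 ± 0.076 (adjusted p = 1) and 0.013 ± 0.076 (adjusted p = 0.989), and Psmb7 gave -0.13 ± 0.12 (adjusted p = 1) and -0.029 ± 0.12 (adjusted p = 0.982). Psmb10 gave -0.11 ± 0.17 (adjusted p = 1) and -0.18 ± 0.17 (adjusted p = 0.897), and Psme1 0.002 ± 0.089 (adjusted p = 1) and 0.12 ± 0.089 (adjusted p = 0.857).

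Cofactors and shuttles that feed the proteasome were followed as a list. After 48 h of BDNF 5 of 14 rose in KO dishes, and 7 rose and 1 fell in WT dishes, with list medians of 0.21 and 0.168. Of all tested genes 19.4% rose in KO dishes, and 20.5% rose and 15.7% fell in WT dishes. Ecpas, an adaptor that tethers the proteasome, rose by 1.10 ± 0.22 (adjusted p = 0.00039) in KO and 0.94 ± 0.22 (adjusted p = 0.00132) in WT dishes. Uchl5, a deubiquitinase of the regulatory particle, rose by 0.47 ± 0.10 (adjusted p = 0.00101) and 0.44 ± 0.10 (adjusted p = 0.00145). At 24 h 1 of 14 rose in KO and 4 in WT dishes, against 5.96% and 8.04% of all tested genes, led in WT by the ubiquitin ligase Ube3c at 0.37 ± 0.092 (adjusted p = 0.00482). Between genotypes 2, 5 and 3 of 14 were lower in KO dishes at basal, 24 h and 48 h, against 18.7%, 17.8% and 14.4% of all tested genes. Zfand5, a proteasome-binding activator, differed by -0.28 ± 0.070 (adjusted p = 0.00293) at 48 h and Zfand2a by -0.31 ± 0.078 (adjusted p = 0.00291) at basal.

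Factors that control proteasome transcription moved in both directions. Maff and Mafg, small MAF proteins that pair with NFE2L1 and NFE2L2, rose at 48 h by 0.67 ± 0.15 (adjusted p = 0.00135) and 0.36 ± 0.11 (adjusted p = 0.0118) in KO dishes, Mafg being named after its values were seen. In WT dishes they rose by 0.84 ± 0.15 (adjusted p = 7.48e-05) and 0.64 ± 0.11 (adjusted p = 2.83e-05). Ngly1, the enzyme that deglycosylates NFE2L1 for its activation, rose by 0.43 ± 0.093 (adjusted p = 0.000644) in KO dishes. Nfe2l2 fell at 24 h, with a change of -0.36 ± 0.089 (adjusted p = 0.00656) in KO and, named after its values were seen, -0.42 ± 0.089 (adjusted p = 0.00135) in WT dishes. Between genotypes Nfe2l2 was higher in KO dishes by 0.52 ± 0.089 (adjusted p = 2.47e-05) at basal, 0.57 ± 0.089 (adjusted p = 5.65e-06) at 24 h and 0.67 ± 0.089 (adjusted p = 3.44e-07) at 48 h. Nfya, a subunit of the CCAAT-binding factor NF-Y, was lower in KO dishes, with differences of -0.35 ± 0.10 (adjusted p = 0.0102) at basal, -0.40 ± 0.10 (adjusted p = 0.00405) at 24 h and -0.34 ± 0.10 (adjusted p = 0.0133) at 48 h. Of 9 genes of this list 2 rose and 1 fell in KO dishes at 24 h, 3 and 1 in WT dishes. The shares of all tested genes that rose and fell at 24 h were 5.96% and 5.55% in KO, and 8.04% and 6.4% in WT dishes. At 48 h the counts were 3 and 1 in KO, and 3 and 2 in WT dishes, where 19.4% and 9.47% of all tested genes rose and fell in KO, and 20.5% and 15.7% in WT dishes.

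Of 11 genes of the segregase p97 (Vcp) and its adaptors, which hand ubiquitylated proteins to the proteasome, 4 rose in KO and 5 in WT dishes at 48 h, and none fell. At that time 19.4% of all tested genes rose and 9.47% fell in KO dishes, and 20.5% rose and 15.7% fell in WT dishes. Ubxn4, an adaptor at the endoplasmic reticulum, rose by 0.37 ± 0.073 (adjusted p = 0.000256) in KO dishes, and Ubxn1 by 0.53 ± 0.20 (adjusted p = 0.0386) in WT dishes. Of the genes of endoplasmic reticulum-associated degradation, which returns misfolded proteins to the cytosol for the proteasome, 4, 1 and 2 of 17 tested were lower in KO dishes at basal, 24 h and 48 h, and 1 was higher at 48 h. Of all tested genes 18.7%, 17.8% and 14.4% were lower at these times, and 9.68% were higher at 48 h. The mannosidase-like Edem2 differed by -0.36 ± 0.14 (adjusted p = 0.0452) at basal, and at 48 h Sel1l, an adaptor of the ubiquitin ligase of that route, differed by 0.34 ± 0.10 (adjusted p = 0.0133) and Edem1 by -0.29 ± 0.099 (adjusted p = 0.0308). Under BDNF at 48 h 2 of these 17 rose in KO and 4 in WT dishes. Of 5 genes of ubiquitin supply and activation 2 rose and 1 fell in KO dishes, and 2 rose in WT dishes, among them the conjugating enzyme Ube2k by 0.39 ± 0.065 (adjusted p = 2.5e-05). Of 10 cytosolic chaperone genes 3 rose and 2 fell in KO dishes, and 3 rose and 1 fell in WT dishes. The small heat shock protein Hspb1 differed between genotypes by 0.70 ± 0.12 (adjusted p = 3.94e-05) at 24 h.

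Markers of several cell types moved with the 48 h arrays. Snap25, a synaptic protein of maturing neurons, rose by 0.72 ± 0.083 (adjusted p = 6.41e-08) in KO and 0.82 ± 0.083 (adjusted p = 3.02e-09) in WT dishes, and Dcx, a marker of young neurons, fell in both, with changes of -0.28 ± 0.047 (adjusted p = 3.37e-05) and -0.24 ± 0.047 (adjusted p = 0.00015). The summed signal of 5 neuronal markers was 173.69 to 198.55 array medians in KO 48 h and 168.16 to 187.2 in KO basal dishes, and 177.66 to 214.29 in WT 48 h and 178.74 to 205.19 in WT basal dishes. The sum over 4 measured erythroid markers was 20.94 to 52.78 in KO 48 h, against 48.54 to 86.16 in KO basal dishes, and 26.33 to 47.76 in WT 48 h, against 50.76 to 92.36 in WT basal dishes. Of these markers Hba-x, Hbb-bh1 and Alas2 averaged below the array median, so the erythroid sum rests mainly on Hbb-y. All 3 tested embryonic globin genes fell in both genotypes, where 9.47% of all tested genes fell in KO and 15.7% in WT dishes. Hba-x fell by 1.16 ± 0.24 on the log2 scale in KO dishes (adjusted p = 0.00042). Progenitor markers summed to 70.42 to 78.82 in KO 48 h and 80.17 to 86.11 in KO basal dishes, and to 68.5 to 76.01 in WT 48 h and 74.25 to 87.46 in WT basal dishes. Astrocyte markers summed to 2.71 to 3.48 in KO 48 h and 2.13 to 3.16 in KO basal dishes, and to 3.57 to 4.22 in WT 48 h and 3.13 to 4.35 in WT basal dishes. Aldh1l1, an enzyme of astrocytes, rose by 0.95 ± 0.15 (adjusted p = 2.05e-05) in KO and 0.76 ± 0.15 (adjusted p = 0.000225) in WT dishes. Some microglial and interferon-responsive genes fell in WT dishes at 48 h, as given above. The part of these markers in the proteasome results was not tested.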

How the data were processed

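Gene expression was measured on Affymetrix Mouse Genome 430A 2.0 arrays, 1 per culture dish. The deposited intensity values are MAS5 signals on a linear scale, per the submitters' processing notes, with the version not given in the sources used here. Each array's values were divided by its median, set to at least 0.1 and put on a log2 scale, and the brightest single-symbol probe set stood for each gene. The upper 60% of genes by mean signal were tested, 7436 of 12394. One limma 3.58.1 fit (R 4.3.3) with a mean per group and intensity-dependent moderation gave two-sided p-values, adjusted by the Benjamini-Hochberg method within each of 9 comparisons, with a threshold of 0.05. The number of arrays limits the precision. Simulated data for the 48 h comparison in WT dishes held 7436 genes, with 50 changed at each size. The fit recovered 10% of genes changed by 0.2, 38% by 0.3, 54% by 0.4 and 86% by 0.585 on the log2 scale. Far fewer genes changed there than the 36.2% that passed in the measured comparison, so these shares do not carry over to it. Groups came from the sample labels.

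The genes named in a comparison were up to 8 higher and 8 lower past the threshold by size of change, together with the catalytic subunits and Psme1, and up to 2 from each other list. The members and lists were chosen with earlier results of these data known. Alternatives were other scalings, quantile normalization, the deposited values, 0.1 added in place of the floor of 0.1, and another filter or probe-set rule. Further ones were the Gapdh ratio as a covariate, replicates 1 and 2 alone at 48 h, and the replicate number as a block. Each array was also left out in turn. The value of the floor was not varied. Fits with no filter for Psmb8 and Psmb9, and single probe sets, were added after seeing the data. Promoters came from RefSeq (GRCm38.p6), and protein sequences were not used here.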

Additional observations from a re-analysis of the deposited data

Results flagged for a closer look

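In 5 of the 96 sets of 5 arrays of the 16 proteasome genes whose signals are given by array, 1 array stood apart by more than Dixon's limit at 95% confidence, which chance alone gives in about 1 set in 20. Psmd12 read 3.51 on KO 24 h replicate 1, with 3.89 to 3.98 on the other 4 arrays. Psmd12 was also 3.92 on WT basal replicate 3, with 3.66 to 3.73 on the others. For Psma1 the low array was KO basal replicate 1, at 3.96 beside 4.22 to 4.30. Psmg2 read 1.66 on WT basal replicate 1, beside 2.20 to 2.34, and 1.99 on WT 24 h replicate 3, beside 2.31 to 2.42. Values are log2 signals over the array median.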

How the results depend on the processing

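The number of arrays limits all of these values, and signals near the floor carry little information. Of the 61 named changes past the threshold, 6 kept their call in all alternatives. All 61 did so with 0.1 added in place of the floor and with the replicate number as a block. All 58 that could be tested did among the upper 40% of genes. The call was kept by 50 with no filter, 50 with the 75th percentile, 47 with quantile normalization, 47 with the Gapdh covariate, 46 with the mean of probe sets, 23 on the values as deposited, and 8 of 27 with replicates 1 and 2 alone at 48 h. Counts of genes past the threshold that moved by over 1.5 times are given here. On the values as deposited they were 1 for KO and 1 for WT at 24 h, 39 for KO and 39 for WT at 48 h, and 1, 1 and 0 between genotypes at basal, 24 h and 48 h. The BDNF calls among them were all rises. Of all tested genes 2.43% rose in KO and 2.45% in WT dishes at 24 h, and 49.6% and 57.7% at 48 h. On those values the median of all tested genes shifted by 0.293 in KO and 0.335 in WT dishes at 48 h, beside member medians of 0.45 and 0.449. With no filter 4 rose and 0 fell in KO dishes at 24 h, against 3.24% and 2.74% of all genes in that fit. The Gapdh covariate left 6 in KO and 7 in WT dishes at 48 h, and replicates 1 and 2 alone left 8, 2 and, between genotypes at 48 h, 1. In that last comparison 6.85% of all tested genes were higher and 5.41% lower. Between genotypes quantile normalization left 6, 4 and 3 at basal, 24 h and 48 h, the 75th percentile 7 and 6 at basal and 24 h, and the mean of probe sets 5 at 24 h. By the mean of probe sets 8.06% of all tested genes were higher and 14.1% lower at 24 h. Leaving out 1 array gave 1 to 12 calls in KO and 4 to 9 in WT dishes at 24 h, 15 to 26 and 12 to 20 at 48 h, 6 to 14, 6 to 10 and 2 to 7 between genotypes, and 0 for the differences of response. The main fit did not pair arrays by replicate number. Correlations of same-numbered deviations ran from -0.174 to 0.281, a check that cannot tell whether arrays of the same number shared an effect. Between genotypes at 48 h they were 0.161, 0.124, 0.281, 0.169 and -0.055 for replicates 1 to 5. With the replicate number as a block 9 passed in KO and 10 in WT dishes at 24 h, 24 and 20 at 48 h, 13, 11 and 5 between genotypes, and 0 for both differences of response. Of all tested genes 7.24% rose and 6.46% fell in KO and 9.86% and 7.26% in WT dishes at 24 h in that fit. At 48 h these were 21.2% and 9.98% in KO and 22.1% and 16.2% in WT dishes. Between genotypes 9.52%, 8.7% and 10.1% were higher and 20.8%, 19.9% and 15.9% lower at basal, 24 h and 48 h.

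Among named changes past the threshold, 2 turned in sign: Psma5 in KO dishes at 48 h was 0.101 on the values as deposited, and Psmd7 in WT dishes at 48 h was -0.043 as the mean of probe sets. The others that turned were not past the threshold. On the values as deposited Psme1 was 0.062 in KO dishes at 24 h, Psmb10 0.005 in KO and 0.252 in WT dishes at 48 h, Psmb5 0.022 at basal and 0.089 at 24 h between genotypes, Psmb6 0.08 and Psmb7 0.153 at 24 h, and Psmb5 -0.051 for the difference of the 48 h response. With the Gapdh covariate Psme1 was 0.001 in KO dishes at 24 h, Psmb10 0.12 and Psmb6 -0.025 in WT dishes at 48 h, and Psmb5 -0.001 for the 24 h response. Quantile normalization gave Psmb6 -0.003 in WT dishes at 48 h, Psmb5 0.028, Psmb6 0.006 and Psmb7 0.089 between genotypes at 24 h, and Psmb5 0.003 at 48 h. The 75th percentile gave Psmb10 -0.003 in WT dishes at 24 h, Psmb6 -0.011 in WT dishes at 48 h, Psmb7 0.04 between genotypes at 24 h, and Psmb5 -0.004 for the 48 h response. With replicates 1 and 2 alone at 48 h Psmb10 was 0.025 in KO and 0.075 in WT dishes, Psme1 0.042 between genotypes, and Psmb7 0.257 for the response. Leaving out 1 array, Psme1 ran from -0.027 to 0.016 in KO and -0.019 to 0.012 in WT dishes at 24 h, Psmb10 from -0.035 to 0.062 in WT dishes at 24 h and -0.138 to 0.021 at 48 h, and Psmb7 from -0.05 to 0.066 between genotypes at 24 h. For the responses Psmb5 ran from -0.031 to 0.037 and -0.034 to 0.05, Psme1 from -0.023 to 0.02 and Psmb7 from -0.078 to 0.057. The cause of these turns was not tested.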
